A study of Mus musculus with 6 samples.

Results

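The T cell receptor complex and its coreceptors were represented by 10 genes, chosen by name from 55401 genes in the count table. Earlier results of these data were known when the genes were chosen. The 10 genes are Cd3d, Cd3e, Cd3g and Cd247, the constant-region genes Trac, Trbc1 and Trbc2, the coreceptor genes Cd4 and Cd8a, and the kinase gene Lck. The study sequenced RNA of microglia from the brain of lupus-prone MRL/lpr mice and of MRL/mpj control mice, with 3 libraries per strain. The mice were untreated and 6 weeks old. MRL/lpr animals carry the inherited lpr mutation of Fas, a death receptor of lymphocytes, in all cells, and MRL/mpj animals share the MRL background without it. The cells came from perfused, collagenase-digested brain through a Percoll gradient and magnetic selection for CD11b, an integrin chain of myeloid cells, microglia included, that NK cells and some activated T cells also carry. A figure legend of the study counts these samples as mice, 3 per strain, while the labels do not say whether each library is a separate animal. The p-values below measure the spread between these libraries.

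An alpha and a beta chain bind the peptide held by an MHC molecule, and the CD3 chains together with CD247 carry the signal into the T cell. CD4 binds MHC class II and CD8 binds MHC class I, and both bring the kinase Lck to the receptor, where it phosphorylates the CD3 and CD247 tails. In older lpr mice, T cells that carry an alpha-beta receptor but neither coreceptor accumulate in lymphoid organs.

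Library totals ran from 45481609 to 48199739 counts in MRL/lpr and from 47826322 to 49846634 in MRL/mpj. Replicates of a strain differed by more than the sampling noise of their counts. MRL/lpr replicate 3 stood apart, since the gene CT010467.1 took 6.38% of its counts and 0.169% to 0.457% in the other libraries. Low counts piled up at multiples of 4, which held 39.4% to 41.4% of the genes with 1 to 20 counts in a library. For example, 1234 genes of MRL/lpr replicate 1 had 4 counts, against 377 with 3 and 254 with 5. How counts relate to read pairs is not known. Fas itself had 282 to 461 counts in MRL/lpr and 362 to 432 in MRL/mpj, and a count per gene does not separate the mutant transcript. Marker genes of microglia were abundant in both strains. Csf1r, a growth factor receptor of microglia, reached 1543 ± 192 FPKM (fragments per kilobase of gene, scaled for depth; SD, n = 3) in MRL/lpr and 1603 ± 34.4 in MRL/mpj. Tmem119 reached 885 ± 143 FPKM in MRL/lpr and 1000 ± 37.5 in MRL/mpj. The highest mean FPKM of a receptor or coreceptor gene was 2.45.

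Transcripts of the T cell receptor complex were low in both strains and higher in MRL/lpr. Together the 10 genes had 1168, 953 and 1218 counts in MRL/lpr and 304, 253 and 305 in MRL/mpj. Scaled for library composition, the sum was 24.7 ± 4.45 CPM (counts scaled to an equal library size; SD, n = 3) in MRL/lpr and 5.61 ± 0.479 in MRL/mpj, a ratio of 4.41. Each of the 10 genes had the higher mean in MRL/lpr, and for 9 of them the libraries of the strains did not overlap. Among the 19554 genes tested, 19.6% had non-overlapping libraries with MRL/lpr higher. In bulk RNA, fewer T cells and less of these transcripts per cell cannot be told apart.

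The strains were compared across all genes with edgeR's quasi-likelihood test and Benjamini-Hochberg adjustment, and a gene was called where it changed by 1 or more on the log2 scale with an adjusted p under 0.05. By that rule 8 of the 10 genes were higher in MRL/lpr, where 4.67% of all genes tested were called higher. None of the 10 was lower, at an unadjusted p under 0.05 (0 genes) or by DESeq2 (0 genes), against 3.66% of all genes called lower. All 10 passed the filter on low counts. For 5 of these (Cd3e, Cd3g, Trac, Trbc1 and Trbc2) all 3 MRL/lpr libraries reached the minimum, but fewer than 3 MRL/mpj libraries did. For such genes the filter itself favoured a higher level in MRL/lpr. Of the other 5, 3 were called higher. The log2 fold changes ran from 1.22 to 4.99 with a median of 2.54, beside a median of -0.01 over all genes tested. Without MRL/lpr replicate 3 or without MRL/lpr replicate 1, 6 of the 10 were called.

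**Figure D1:**
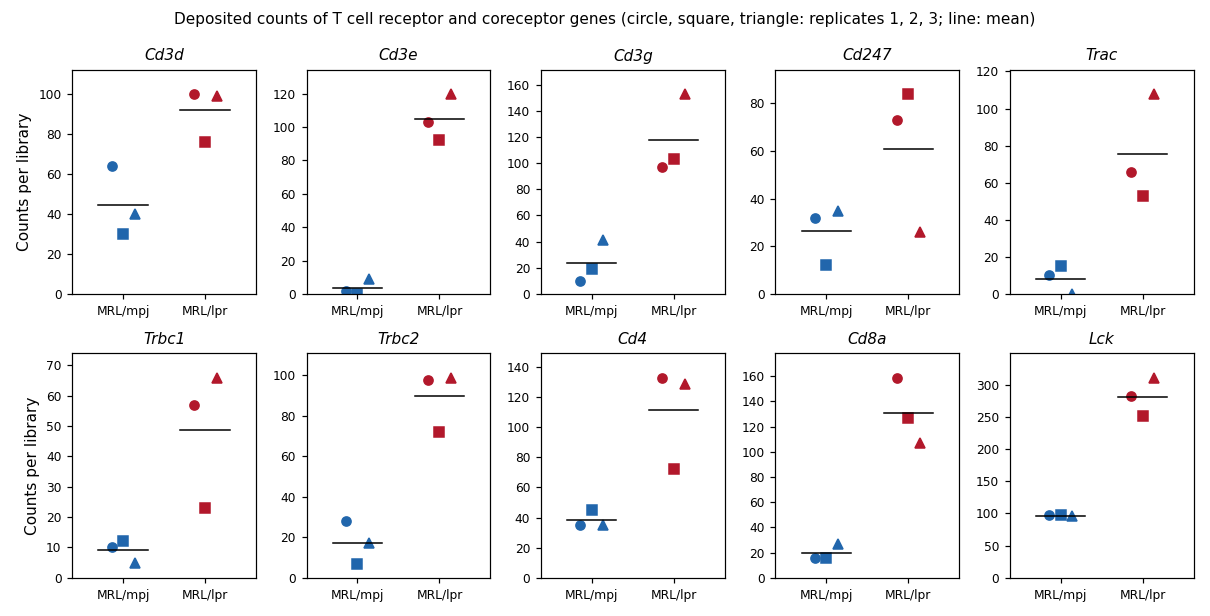
Deposited counts per library (vertical axes, each from 0 with its own range) of the 10 receptor and coreceptor genes in MRL/mpj (blue) and MRL/lpr (red). Circles, squares and triangles are replicates 1, 2 and 3 and lines are means. The strains overlap for Cd247, where MRL/lpr replicate 3 has 26 counts, and separate for the other 9 genes.

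The receptor chains that bind antigen were described first. Trac (ENSMUSG00000076928, chr14:54220521-54224206 on the plus strand of GRCm38) encodes the constant region of the alpha chain. It had 66, 53 and 108 counts in MRL/lpr and 10, 15 and 0 in MRL/mpj. The lowest MRL/lpr library was above the highest MRL/mpj library. This was a log2 fold change of 3.35 (SE 0.89, edgeR's adjusted p 0.0273). Its call was lost on leaving out MRL/lpr replicate 1 (edgeR's adjusted p 0.0582), MRL/lpr replicate 3 (0.0879) or MRL/mpj replicate 1 (0.085).

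Trbc1 and Trbc2 encode the constant regions of the beta chain, and either can be joined to the same variable segments. They lie on chromosome 6, Trbc1 (ENSMUSG00000076490) at chr6:41538218-41539881 and Trbc2 (ENSMUSG00000076498) at chr6:41546730-41548352, both on the plus strand of GRCm38. The GENCODE M21 transcripts show how alike they are. Over the first 500 coding bases, 19 differ and 96.2% are identical, and bases 1 to 259 are the same in both genes. That stretch is longer than a read of 150 bases, so counts of the 2 genes can be split between them by the counting method. Bases 251 to 500 are shown because they hold the differences, with the differing bases in capitals.
Trbc1: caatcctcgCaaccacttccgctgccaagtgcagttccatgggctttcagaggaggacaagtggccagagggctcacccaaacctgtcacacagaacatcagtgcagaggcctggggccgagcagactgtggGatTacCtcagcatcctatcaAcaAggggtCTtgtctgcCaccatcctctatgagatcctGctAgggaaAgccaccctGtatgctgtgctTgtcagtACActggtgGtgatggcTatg
Trbc2: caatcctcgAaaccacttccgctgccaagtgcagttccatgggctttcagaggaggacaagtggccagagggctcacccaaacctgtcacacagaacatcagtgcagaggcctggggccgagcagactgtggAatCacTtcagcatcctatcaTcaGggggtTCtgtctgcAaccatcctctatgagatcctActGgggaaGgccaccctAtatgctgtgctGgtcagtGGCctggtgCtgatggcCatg

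Trbc1 had 57, 23 and 66 counts in MRL/lpr and 10, 12 and 5 in MRL/mpj. The libraries of the strains did not overlap, and MRL/lpr replicate 2 was the lowest of its strain. The log2 fold change was 2.61 (SE 0.66), and edgeR's adjusted p was 0.0219. The call was lost without MRL/lpr replicate 1 (edgeR's adjusted p 0.0668), MRL/lpr replicate 3 (0.0784), MRL/mpj replicate 1 (0.0606) or MRL/mpj replicate 3 (0.0684). Trbc2 had 98, 72 and 99 counts in MRL/lpr and 28, 7 and 17 in MRL/mpj, again without overlap. Its log2 fold change was 2.55 (SE 0.51), with an adjusted p of 0.00674 from edgeR. With Trbc1 and Trbc2 added, which removes the split between near-identical copies, the beta-chain counts were 155, 95 and 165 in MRL/lpr and 38, 19 and 22 in MRL/mpj. That sum had a log2 fold change of 2.58 (SE 0.40) and an adjusted p of 0.00173 from edgeR.

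The variable segments, which each T cell joins to a constant region during its development, were spread over the libraries in small counts. Counts over segments of the alpha (Trav), beta (Trbv) and delta (Trdv) chains and the single gamma segment named Trgv summed to 61, 59 and 70 in MRL/lpr and to 10, 8 and 0 in MRL/mpj. Of the segments in the table, 27 had a count in an MRL/lpr library and 4 in an MRL/mpj library, with 1 of them in both. The sums and numbers include Trav9n-1, Trav4d-2 and Trbv24, which are annotated as pseudogenes and had counts in MRL/lpr only. Trbv24 gave 11 of the counts of MRL/lpr replicate 3. The MRL/lpr libraries held 10, 11 and 9 segments each, and 3 segments recurred in more than 1 of them. No segment exceeded 20 counts in a library, and no test was made on segments, because many of them resemble each other. Counts this low do not show how varied the receptors were.

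**Figure D2:**
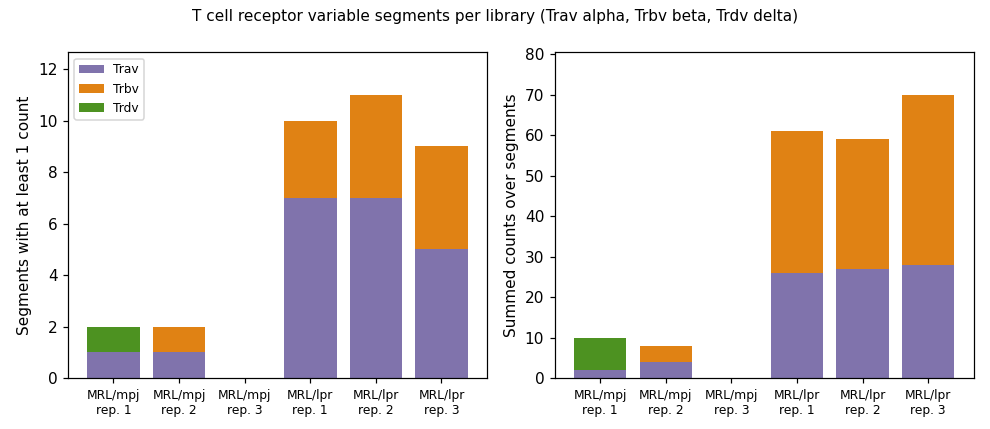
Number of T cell receptor variable segments with at least 1 count (left) and their summed counts (right) in each library, stacked by alpha (Trav), beta (Trbv) and delta (Trdv) segments. The MRL/lpr libraries hold 9 to 11 segments and the MRL/mpj libraries 0 to 2.

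The chains of the other receptor type, which pairs a gamma with a delta chain, were near the limit of detection. Trdc, the delta constant region, had 12, 4 and 0 counts in MRL/lpr and 0, 8 and 0 in MRL/mpj. Trdv4, a delta variable segment, had 8 counts in MRL/mpj replicate 1 and none in the other libraries. These 8 counts are part of the sum of 10 given above for that library. Tcrg-C2, a gamma constant region, had 12 counts in MRL/lpr replicate 2 and none in the other libraries. Tcrg-C4 had 4 counts in MRL/lpr replicate 2 and 4 in MRL/mpj replicate 3, and Tcrg-C1 and Tcrg-C3 had 0 in all libraries. The 6 gamma variable segments that the annotation names Tcrg-V are outside the sum above and had 5 counts, all of Tcrg-V7 in MRL/lpr replicate 1. These gamma names were chosen after values were seen. A difference in gamma-delta transcripts between the strains was not detectable at this depth.

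The CD3 chains share a locus on chromosome 9. Cd3g (ENSMUSG00000002033, chr9:44969572-44980431, minus strand) and Cd3d (ENSMUSG00000032094, chr9:44981786-44987339, plus strand) are 1354 bases apart. A gap of 11400 bases separates Cd3d from Cd3e (ENSMUSG00000032093, chr9:44998740-45009627, minus strand). CD3 epsilon, the product of Cd3e, pairs with both the delta and the gamma chain. Cd3e had 103, 92 and 120 counts in MRL/lpr and 2, 0 and 9 in MRL/mpj, the widest separation of the 10 genes. Its log2 fold change was 4.99 (SE 0.78) and edgeR's adjusted p was 0.00177. The size rests in part on MRL/mpj replicate 3, without which the log2 fold change was 6.71.

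Cd3g had 97, 103 and 153 counts in MRL/lpr and 10, 19 and 41 in MRL/mpj. The strains did not overlap, and replicate 3 was the highest in each. The log2 fold change was 2.53 (SE 0.52), and edgeR's adjusted p was 0.00746. Without MRL/mpj replicate 3 the log2 fold change was 3.19. Cd3d had 100, 76 and 99 counts in MRL/lpr and 64, 30 and 40 in MRL/mpj. These libraries did not overlap either, but the gap between 76 and 64 was small. The log2 fold change of Cd3d was 1.22 (SE 0.38) and its adjusted p of 0.0501 from edgeR missed the threshold. Without MRL/mpj replicate 1, the highest library of its strain, it was 1.57 with an adjusted p of 0.0357 from edgeR.

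Counts of the neighbouring CD3 genes were also set against each other within each library. Cd3e had 1.03, 1.21 and 1.21 counts per count of Cd3d in the MRL/lpr libraries and 0.0313, 0 and 0.225 in the MRL/mpj libraries. The exact two-sided permutation p was 0.1, the smallest that 3 libraries against 3 can give. Cd3g had 0.97, 1.36 and 1.55 counts per count of Cd3d in MRL/lpr and 0.156, 0.633 and 1.02 in MRL/mpj, and these overlapped (exact two-sided permutation p = 0.2). Both pairs were chosen after their values were seen.

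The start regions of Cd3d and Cd3e are shown because these genes of a shared locus stood at the low and the high end of the fold changes. They are from RefSeq (GRCm38.p6), run from 250 bases before to 50 bases after the start, and read 5′ to 3′ on the strand of the gene, which is chr9:44981536-44981835 on the plus strand for Cd3d and chr9:45009562-45009861 on the minus strand for Cd3e. Capitals mark the letters CACCTG, an E-box bound by E proteins, and AGGAAG, an ETS motif, on either strand.
Cd3d: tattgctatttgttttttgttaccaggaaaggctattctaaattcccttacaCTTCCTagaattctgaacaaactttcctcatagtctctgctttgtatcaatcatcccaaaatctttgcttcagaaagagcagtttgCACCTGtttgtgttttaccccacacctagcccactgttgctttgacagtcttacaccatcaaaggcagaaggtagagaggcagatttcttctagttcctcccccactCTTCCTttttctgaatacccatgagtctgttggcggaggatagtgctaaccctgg
Cd3e: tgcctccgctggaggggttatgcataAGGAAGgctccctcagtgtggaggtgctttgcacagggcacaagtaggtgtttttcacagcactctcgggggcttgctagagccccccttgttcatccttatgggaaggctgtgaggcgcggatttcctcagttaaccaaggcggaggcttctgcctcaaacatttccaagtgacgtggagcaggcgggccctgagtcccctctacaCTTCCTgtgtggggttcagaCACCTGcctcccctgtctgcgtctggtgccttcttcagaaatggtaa

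RefSeq promoters matched 6 of the 10 genes with 7 start regions. The E-box letters stood in 6 of these 7 and in 20.2% of 32851 promoters of the same length. The ETS letters stood in 5 of 7 and in 35.4% of all promoters. The RUNX letters TGTGGT stood in 1 of 7 and in 16.8% of all. The GATA letters AGATAA stood in 1 of 7 and in 11.2% of all. The letters TTCAAAG of TCF and LEF stood in 0 of 7 and in 5.14% of all. All were searched on both strands, and none of these motifs contains another. A match is a run of letters and no evidence of binding.

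Cd247 (ENSMUSG00000005763, chr1:165788681-165877277, plus strand) encodes the zeta chain, which carries most of the signalling motifs of the receptor. It had 73, 84 and 26 counts in MRL/lpr and 32, 12 and 35 in MRL/mpj. It was the only one of the 10 genes whose strains overlapped, through MRL/lpr replicate 3. The log2 fold change was 1.36 (SE 0.57), and edgeR's adjusted p of 0.131 did not pass. It did not pass without MRL/lpr replicate 3 either, at 1.70 with an adjusted p of 0.0523 from edgeR. Cd247 overlaps Pou2f1 on the opposite strand, which had 2028 to 3248 counts over the 6 libraries and a log2 fold change of -0.09 (edgeR's adjusted p 0.619).

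Transcripts of both coreceptors were higher in MRL/lpr. Cd8a (ENSMUSG00000053977, chr6:71373427-71379173, plus strand) encodes the CD8 alpha chain, which also occurs without a beta chain on some dendritic cells. It had 159, 127 and 107 counts in MRL/lpr and 16, 16 and 27 in MRL/mpj. Every MRL/lpr library was far above every MRL/mpj library. Its log2 fold change was 2.90 (SE 0.36, edgeR's adjusted p 0.000416).

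Cd8b1, the gene of the CD8 beta chain, lies 35932 bases from Cd8a and was not among the 10. It had 70, 77 and 28 counts in MRL/lpr and 0 in all 3 MRL/mpj libraries. Against a floor of 3 counts per library it was at least 21.6-fold higher in MRL/lpr (edgeR's adjusted p 0.00122). With the floor set at 12 counts, for the pile-up of counts at 4, the bound was 5.39-fold. The beta chain gave 0.440, 0.606 and 0.262 counts per count of Cd8a in the MRL/lpr libraries. In MRL/mpj the same ratio was 0 in each library, on 16 to 27 counts of Cd8a (exact two-sided permutation p = 0.1, the smallest possible; pair chosen after its values were seen).

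Cd4 (ENSMUSG00000023274, chr6:124864692-124888221, minus strand) marks helper T cells and occurs on some myeloid cells too. It had 133, 72 and 129 counts in MRL/lpr and 35, 45 and 35 in MRL/mpj. The strains did not overlap, with MRL/lpr replicate 2 the lowest of its strain. The log2 fold change was 1.72 (SE 0.37), and edgeR's adjusted p was 0.0097.

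Lck (ENSMUSG00000000409, chr4:129548344-129573641, minus strand) had 282, 251 and 311 counts in MRL/lpr and 97, 97 and 96 in MRL/mpj. The strains did not overlap, and the MRL/mpj libraries lay close together. This gave a log2 fold change of 1.72 (SE 0.22, edgeR's adjusted p 0.000468). Lck is also expressed by NK cells. Of the summed counts of the 10 genes, not corrected for length, its share was 25.3% in MRL/lpr and 33.9% in MRL/mpj.

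**Figure D3:**
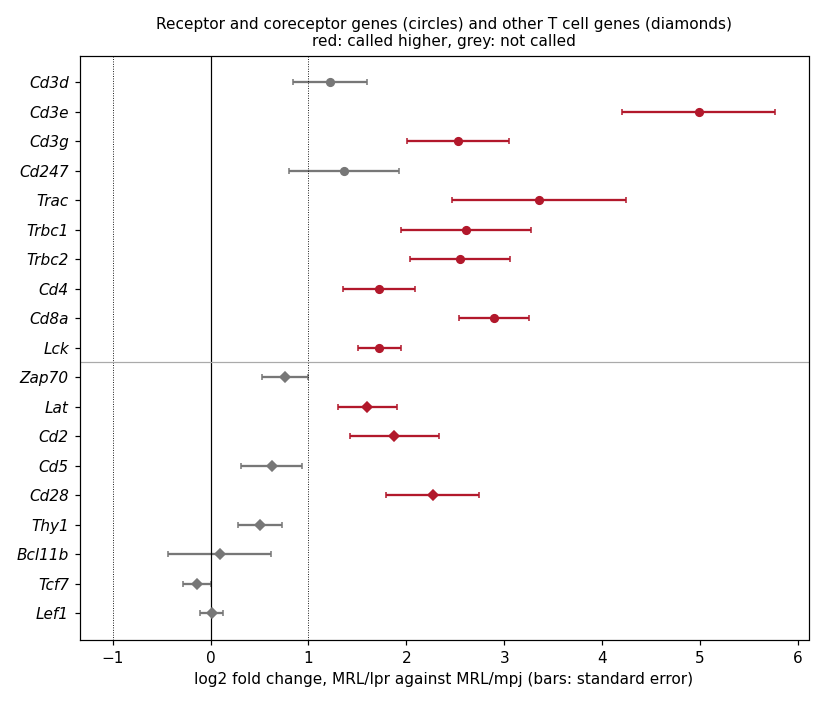
Log2 fold change of MRL/lpr against MRL/mpj (horizontal axis, bars: standard error) for the 10 receptor and coreceptor genes (circles) and 9 other T cell genes (diamonds). Dotted lines mark a log2 fold change of 1 in either direction, red points were called higher and grey points were not called. Cd3e lies farthest out at 4.99, and Bcl11b, Tcf7 and Lef1 lie near 0.

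Levels of the 10 genes were compared with each other per length, in the deposited FPKM. In MRL/lpr the order by mean FPKM was Trbc2 (2.45 ± 0.473, SD, n = 3), Lck (1.80 ± 0.257), Trac (1.53 ± 0.643), Trbc1 (1.22 ± 0.602), Cd3d (0.943 ± 0.161), Cd3g (0.677 ± 0.211), Cd8a (0.673 ± 0.123), Cd4 (0.52 ± 0.165), Cd3e (0.48 ± 0.0819) and Cd247 (0.207 ± 0.102). Of the 9 neighbouring pairs in that order, 8 had overlapping libraries, and Cd3e lay above Cd247 without overlap. In MRL/mpj the order began with Lck (0.587 ± 0.0115) and Trbc2 (0.44 ± 0.271), ended with Cd3e (0.0167 ± 0.0208), and all 9 neighbouring pairs overlapped. Cd3d stood next at 0.433 ± 0.169 in MRL/mpj, and the remaining 6 genes lay between 0.0867 and 0.21.

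**Figure D4:**
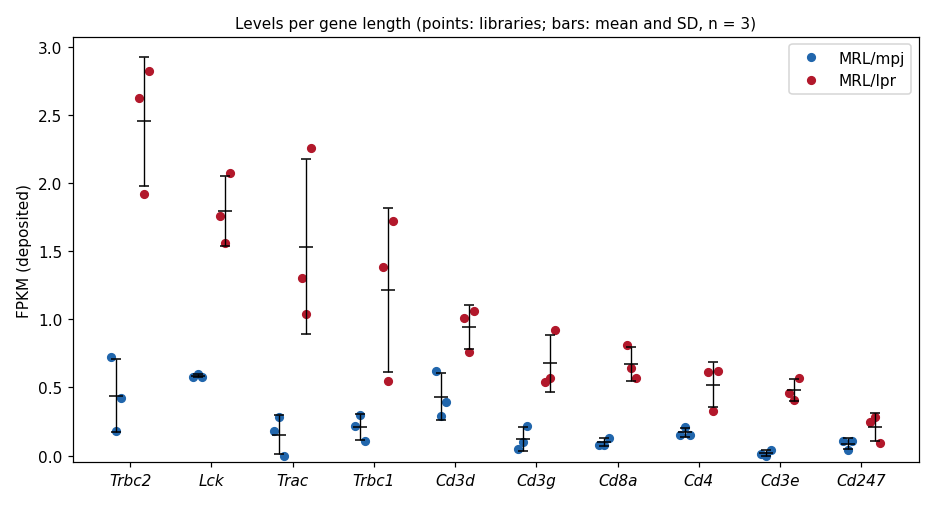
Deposited FPKM per library (vertical axis; points: libraries, bars: mean and SD, n = 3) of the 10 genes, ordered by their mean in MRL/lpr (red), with MRL/mpj in blue. Trbc2 has the highest mean in MRL/lpr, 2.45, and Cd247 the lowest, 0.207.

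Other genes of T cells were counted in lists by function. Of 69 genes listed, 56 were tested, and 18 were called higher and 2 lower in MRL/lpr, with a median log2 fold change of 0.78. Of these 56, 11 reached the filter's minimum in all MRL/lpr libraries but not in all MRL/mpj libraries. Of those 11, 6 were called higher, as were 12 of the other 45. By the adjusted p alone, 24 were higher and 5 lower, against 11.1% and 9.06% of all genes tested.

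Among genes of receptor signalling, 3 of 18 tested were called higher and 0 lower by edgeR and by DESeq2. At an unadjusted p under 0.05, 1 was lower, and by edgeR's adjusted p alone 6 were higher and 1 lower. Lat, the adaptor that gathers signalling proteins below the receptor, had 142, 125 and 88 counts in MRL/lpr and 42, 42 and 47 in MRL/mpj, a log2 fold change of 1.60 (SE 0.30, edgeR's adjusted p 0.00477). Ptpn22, a phosphatase that restrains Lck, was also called higher, with a log2 fold change of 1.41 (edgeR's adjusted p 0.00392). Zap70, the kinase that binds the phosphorylated CD3 and CD247 tails, had 172, 204 and 241 counts against 132, 142 and 141, and its log2 fold change of 0.76 had an adjusted p of 0.0512 from edgeR.

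Among surface and costimulatory genes, 6 of 17 tested were called higher and 2 lower. Cd28, the main costimulatory receptor of T cells, had 187, 161 and 90 counts in MRL/lpr and 13, 46 and 42 in MRL/mpj, a log2 fold change of 2.27 (SE 0.48, edgeR's adjusted p 0.00873). Ctla4, its inhibitory counterpart, had 147, 96 and 85 counts against 0, 8 and 17, a log2 fold change of 3.86 (edgeR's adjusted p 0.0109, or 0.0549 without MRL/mpj replicate 2). Cd6, a receptor on mature T cells, had 132, 133 and 107 counts against 3, 24 and 27, a log2 fold change of 2.95 (edgeR's adjusted p 0.00738). For these 3 genes no MRL/mpj library reached an MRL/lpr library.

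Cd2, an adhesion receptor of T and NK cells, had a log2 fold change of 1.88 (edgeR's adjusted p 0.0172), and Ms4a4b, a membrane protein of T cells, was 3.72-fold higher (0.0214). Both calls were lost with some libraries left out. The log2 fold change then ran from 1.68 to 2.33 for Cd2 and from 1.55 to 2.47 for Ms4a4b over all libraries left out. The call of Cd2 was lost without MRL/lpr replicate 1 or MRL/mpj replicate 2 or 3 (edgeR's adjusted p 0.0586 to 0.0659). That of Ms4a4b was lost without MRL/lpr replicate 1 or 2 or MRL/mpj replicate 1 or 3 (0.054 to 0.0772). Thy1, which many brain cells also carry, had 244, 207 and 215 counts against 155, 220 and 154, with a log2 fold change of 0.51 (edgeR's adjusted p 0.166). For Cd5, a receptor of T cells and some B cells, it was 0.62 (edgeR's adjusted p 0.215).

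The genes of 2 inhibitory receptors ran the other way. Pdcd1, which encodes PD-1, had 95, 137 and 106 counts in MRL/lpr and 1036, 871 and 964 in MRL/mpj, a log2 fold change of -2.91 (SE 0.17, edgeR's adjusted p 4.96e-06). Lag3, which lies 16139 bases from Cd4 and binds MHC class II as CD4 does, had 10276, 9953 and 10656 counts against 25529, 24339 and 24771. Its log2 fold change was -1.09 (SE 0.08, edgeR's adjusted p 1.45e-05). For both genes every MRL/mpj library was above every MRL/lpr library. Lag3 was at 228 CPM in MRL/lpr and 487 in MRL/mpj, where the 10 receptor and coreceptor genes together had 24.7 and 5.61. Which cells carried the transcripts of Pdcd1 and Lag3 was not tested.

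Of 11 transcription factors of the T lineage, 2 were called higher and 0 lower by edgeR and by DESeq2. At an unadjusted p under 0.05, 1 was lower, and by edgeR's adjusted p alone 2 were higher and 1 lower. Eomes, a factor of cytotoxic and memory T cells and of NK cells, had 98, 123 and 67 counts in MRL/lpr and 26, 16 and 27 in MRL/mpj, a log2 fold change of 2.22 (edgeR's adjusted p 0.00318). Ikzf3, a lymphocyte zinc finger factor, had 1.54 (edgeR's adjusted p 0.0407). Its call was lost without MRL/lpr replicate 1 or 2, or without MRL/mpj replicate 1 or 3 (edgeR's adjusted p 0.0945 to 0.146). Bcl11b, which commits progenitors to the T lineage, had 46, 25 and 23 counts against 23, 31 and 45, and its log2 fold change was 0.09 (SE 0.53, edgeR's adjusted p 0.934). Tcf7 and Lef1, factors of naive T cells that other cells also express, had log2 fold changes of -0.14 and 0.01 (edgeR's adjusted p 0.58 and 0.965).

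The effector genes of cytotoxic T cells, which NK cells share, were higher in MRL/lpr for 6 of 9 tested. Log2 fold changes of 1.70 for Gzma, 2.59 for Gzmb, 2.61 for Prf1 and 2.63 for Nkg7 had adjusted p-values of 0.00119, 0.000333, 0.00158 and 0.000211 from edgeR. Gzmk, a granzyme of T cells, had 65, 38 and 32 counts in MRL/lpr and none in MRL/mpj, so that it was at least 16.8-fold higher against a floor of 3 counts per library and 4.20-fold against 12. Fasl, the ligand of Fas, had 38, 64 and 16 counts against 0, 4 and 0, a log2 fold change of 4.89 (edgeR's adjusted p 0.0172). Without MRL/mpj replicate 2 it was 8.35, and its call was lost without MRL/lpr replicate 2 or MRL/mpj replicate 1 or 3 (edgeR's adjusted p 0.0556 to 0.0993).

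Markers of other cells that share these genes were counted beside them. Of 7 NK cell markers tested of 10 listed, 3 were called higher (Eomes, Gzma and Prf1, which are also on the T cell lists), and the summed level was 12.9 to 15.7 CPM in MRL/lpr and 8.90 to 9.55 in MRL/mpj. The defining NK gene Ncr1 had 27, 25 and 0 counts against 7, 21 and 0, Klrb1c had 23, 0 and 0 against 75, 16 and 82, and Klra8 was at 0 in all libraries. Of 9 dendritic cell markers tested, 1 was called higher (Itgae, also on T cells, log2 fold change 1.42), and the summed level was 226 to 244 CPM against 206 to 228. That sum includes Siglech, which is also on the microglia list, so it does not measure dendritic cells alone. B cell markers were called in 0 of 7 tested by edgeR, with 2 higher and 1 lower at an unadjusted p under 0.05 and 1 higher by DESeq2. By edgeR's adjusted p alone, 0 B cell markers were higher and 1 lower, and their sum was 32.3 to 33.4 CPM against 36.6 to 38.6. Of 7 plasma cell markers, 2 were called higher, Jchain by 3.66 on the log2 scale and Mzb1, with 25, 54 and 48 counts against 0 in each MRL/mpj library. Their sum was 204 to 231 CPM against 184 to 194. Of 10 microglia markers, 0 were called higher and 1 lower (Fcrls, -1.76), with a sum of 22505 to 25164 CPM against 26717 to 27331. Of 8 macrophage markers, 0 were called higher and 1 lower (Cbr2, -1.68), with a sum of 58.9 to 59.7 CPM against 64.0 to 72.7. At an unadjusted p under 0.05, 0 microglia markers were higher and 4 lower, and 1 macrophage marker was higher and 3 lower. By edgeR's adjusted p alone, 3 microglia markers and 2 macrophage markers were lower and 0 of either list higher. DESeq2 called 0 of either list higher and 1 of each lower. The part of these cells in the T cell receptor result was not tested.

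Among the nearest coding genes beside the 10, Cd8b1 was higher (above), and the neighbours outside the T cell lists had smaller or negative log2 fold changes. Ube4a, next to Cd3g, had a log2 fold change of -0.25, Dad1, next to Trac, -0.19, Gpr162, next to Cd4, 0.26, and Hdac1 and Fam167b, on either side of Lck, 0.15 and -0.12. Rmnd5a, next to Cd8a, had -0.46, and Mpzl2, beyond Cd3e, had 17 counts or fewer in every library. On either side of Cd247, Creg1 had -0.89 and Dusp27 had -3.33. Ephb6, beyond the Trbc genes, had 0.91 (edgeR's adjusted p 0.293), and Prss2 on their other side was at 0 in all libraries. Of the neighbours outside the lists, none was called higher.

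Outside the lists, the 5 genes whose log2 CPM over the 6 libraries followed the mean of the 10 genes most closely were Ldhb, Dcaf5, Emilin2, Gm6278 and Pnp, of 17169 candidates. Their Pearson r was 0.998 for each, all on the same 6 libraries, which share the split into strains. Ldhb, a subunit of lactate dehydrogenase, was at 253 ± 36.1 CPM (SD, n = 3) in MRL/lpr and 65.9 ± 8.61 in MRL/mpj. Emilin2, an extracellular matrix protein, was at 28.1 ± 2.60 CPM against 6.66 ± 0.536, and Pnp, an enzyme of purine salvage, at 367 ± 21.5 against 213 ± 14.8. Dcaf5 was at 81.4 ± 1.44 CPM against 62.8 ± 0.649.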

How the data were processed

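Whole-number counts per gene and FPKM values, per the labels and as deposited by the authors, were used for 6 libraries. The submitters' processing notes name cutadapt 1.9.3, HISAT2 2.0.4, Cufflinks, Cuffdiff 2.2.1 and the genome build GRCm38, and the study's methods name DESeq2 with a log2 fold change of at least 1 and a q-value under 0.05. The counting tool and the annotation release are not given in the sources used here. The labels describe removal of ribosomal RNA and a stranded kit, the methods purification of mRNA. Symbols and coordinates came from GENCODE M21, which matched 55141 of 55401 identifiers.

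Counts were tested with edgeR 4.0.16 in R 4.3.3 without covariates, with filterByExpr (minimum count 10, minimum total 15), TMM, robust dispersions, the quasi-likelihood test and Benjamini-Hochberg adjustment over 19554 genes (common biological coefficient of variation 0.26). The steps were tested on simulated data. CPM values use TMM sizes. Alternatives were DESeq2 1.42.0, its size factors, library size only, no count filter, dispersions that are not robust, counts divided by 4, a replicate block and each library left out. The sum of Trbc1 and Trbc2 and the floor of 12 counts were chosen after seeing the data. The 10 genes and the lists were chosen with earlier results of these data known. Named were the 10 genes, called genes of each list (at most 6 with the largest change), Zap70, Lat, Cd2, Cd5, Cd28, Thy1, Cd8b1, Bcl11b, Tcf7 and Lef1, nearest coding neighbours, and the 5 genes most correlated with the mean. A gene under this rule is left out of the text. Others are defining markers or were chosen after their values were seen. The order of levels used FPKM. Library totals of 45481609 to 49846634 counts set the precision, and the spread between libraries, not counting error alone, enters the tests.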

Additional observations from a re-analysis of the deposited data

How the results depend on the processing

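Under the alternatives tried, the sum of Trbc1 and Trbc2 included, the 10 genes gave 130 values, all with the direction of the reported value, and 99 passed the call. The single value of that sum, which passed, is counted under Trbc1 and again under Trbc2. With counts divided by 4, Cd247 and Trbc1 fell below the count filter and gave no value. Cd3d passed with DESeq2 size factors (1.22, adjusted p 0.0496 from edgeR) and with counts divided by 4 (1.20, 0.0346), and ran from 1.01 to 1.57 with a library left out. With a library left out, Trac ran from 2.77 to 4.09 and Trbc1 from 2.25 to 2.96.

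The counts showed no pairing by replicate number. Same-numbered libraries deviated with correlations of -0.03 to -0.01, and differently numbered ones with -0.01 to 0.03. This does not show whether libraries were collected or processed in pairs. With the replicate block, Trac (3.50, adjusted p 0.0963 from edgeR) and Trbc1 (2.52, 0.0871) were not called, and 6 of the 10 genes were. Over all genes, library size alone as scaling gave 766 higher and 932 lower calls, against 914 and 716, and moved the median of all genes to -0.13, and the 10 genes kept 8 calls under it. Counts of 0 to 41 in several MRL/mpj libraries limit the fold changes of Cd3e, Cd3g, Trac, Trbc1 and Trbc2.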
